A study of Mus musculus with 2 samples.

Results

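The apolipoproteins are the protein components of plasma lipoproteins, and 10 of their genes were followed here in mouse mammary gland: Apoa1, Apoa2, Apoa4, Apob, Apoc1, Apoc3, Apoc4, Apod, Apoe and Apom. They were chosen by gene symbol from a list drawn up with earlier results of these data known, and all 10 were found among the 43346 genes of the tables. Poly(A) RNA longer than 200 nt, depleted of rRNA, was sequenced as stranded read pairs of 76 nt in 2 libraries, which the labels number as biological replicates 1 and 2 of 1 group. The animals were adult littermates of the inbred strain C57BL/6J at 8 weeks of age, with males and females pooled, and no genotype, treatment or reproductive state is labelled. The libraries have separate biosample codes but the same donor code, so the spread between them may be in part technical. With 1 group nothing could be tested between conditions, and no p-value is given. All values are a description of these 2 libraries, given for replicate 1 and then replicate 2.

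Apolipoproteins bind lipid through amphipathic helices or, in the case of Apod and Apom, in the pocket of a lipocalin fold, and they steer lipoproteins to lipases, exchange proteins and receptors. Liver and intestine make most of the apolipoproteins of plasma, with Apob as the single large backbone of chylomicrons and very low density lipoproteins, Apoa1 and Apoa2 as the main proteins of high density lipoproteins, and the small C proteins as regulators of triglyceride hydrolysis. Apoe and Apoc1 are made in liver but also in macrophages and adipose tissue, and Apod is made in fibroblasts, adipose tissue and glia. The members were therefore split by textbook site of synthesis into 7 hepatic and intestinal genes (Apoa1, Apoa2, Apoa4, Apob, Apoc3, Apoc4, Apom) and 3 genes made in adipose tissue and macrophages (Apoe, Apoc1, Apod).

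The summed expected counts over genes, which are estimated fragments, were 56323489 in replicate 1 and 42400470 in replicate 2. The tissue label was checked against marker genes: the 4 luminal epithelial markers (Krt8, Krt18, Krt19, Epcam) summed to 723 and 1253 TPM (a level per transcript length, scaled to a fixed sum per library), the 3 basal markers (Krt14, Krt5, Acta2) to 592 and 437 TPM, and the 6 white adipocyte markers to 18534 and 35278 TPM. Replicate 1 stood apart by skeletal muscle RNA, with 4 markers (Acta1, Ckm, Mylpf, Tnni2) at 20314 TPM against 10.02 TPM in replicate 2. The 3 brown adipocyte markers were also higher in replicate 1, at 903 TPM against 161 TPM. Replicate 2 stood apart by liver genes, as given below. In whole tissue, fewer cells of a type and less RNA per cell cannot be told apart.

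The sequences upstream of the start are shown for 2 hepatic members that lay far apart between the replicates (Apoa2 and Apob) and for 2 adipose and macrophage members that were measured in both (Apoe and Apod). Each is the 250 bases before a RefSeq start site on GRCm38.p6, 5′ to 3′ on the gene's strand. They lie at chr1:171224804-171225053 (plus strand) for Apoa2, chr12:7977427-7977676 (plus strand) for Apob, chr7:19699189-19699438 (minus strand) for Apoe and chr16:31314809-31315058 (minus strand) for Apod, and capitals mark the letters TATAAA, the core of a TATA box.
Apoa2: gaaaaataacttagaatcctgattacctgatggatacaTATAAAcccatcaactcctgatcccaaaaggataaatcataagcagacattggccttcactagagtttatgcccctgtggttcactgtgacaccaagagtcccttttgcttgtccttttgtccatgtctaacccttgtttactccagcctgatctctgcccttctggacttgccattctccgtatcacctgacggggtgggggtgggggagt
Apob: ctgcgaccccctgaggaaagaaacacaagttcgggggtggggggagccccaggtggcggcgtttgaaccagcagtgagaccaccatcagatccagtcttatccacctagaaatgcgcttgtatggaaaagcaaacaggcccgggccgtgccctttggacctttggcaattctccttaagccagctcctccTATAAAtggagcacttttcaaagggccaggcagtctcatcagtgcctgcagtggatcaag
Apoe: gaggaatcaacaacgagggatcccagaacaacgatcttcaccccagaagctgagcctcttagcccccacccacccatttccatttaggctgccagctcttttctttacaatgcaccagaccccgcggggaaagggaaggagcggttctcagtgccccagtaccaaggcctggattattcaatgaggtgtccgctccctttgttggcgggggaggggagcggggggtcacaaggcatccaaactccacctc
Apod: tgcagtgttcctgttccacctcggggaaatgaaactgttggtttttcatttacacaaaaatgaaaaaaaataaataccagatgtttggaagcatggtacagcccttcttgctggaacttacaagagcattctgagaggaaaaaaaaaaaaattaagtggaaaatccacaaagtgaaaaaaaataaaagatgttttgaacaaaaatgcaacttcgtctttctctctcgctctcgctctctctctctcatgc
Promoter windows were found for 8 of the 10 members, and for Apoa2 and Apoe, which have more than 1, the window nearest to the annotated gene start was taken. For Apoe that window lies before the start of the transcript Apoe-206, not of Apoe-209, the leading transcript given below. On either strand, the windows left out hold TATAAA and GTTAAT (Apoe) and AGGTCA (Apoa2). The RefSeq start lies inside the annotated gene for some members, by up to 249 bases for Apom. TATAAA on either strand was in the windows of Apoa2, where it begins 212 bases before the start, and of Apob, where it begins 60 bases before it, against 12.4% of 32851 windows of the same length. Among the windows taken, AGGTCA, the half-site of nuclear receptors, was in that of Apoc4 alone, against 14% of windows. CAAAGTCCA, a core of sites for the liver factor HNF4, and GTTAAT, a half-site of HNF1, were in none of the 8, against 0.384% and 6.43% of windows. These are matches of letters only, searched on both strands, and say nothing of binding.

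Apoe, the ligand that carries remnant lipoproteins to receptors of the LDL receptor family, was the most abundant apolipoprotein transcript in both replicates. It stood at 1479 and 4008 TPM, a mean of 2743 ± 1788 TPM (SD, n = 2), from 58178 and 105782 fragments. Among 21474 protein-coding genes it ranked 49th and 18th by TPM. Apoe took 94.7% and 94.3% of the summed TPM of the 10 members. Its share was therefore nearly the same in both libraries while its level was higher in replicate 2. The ratio of its counts, replicate 2 over replicate 1 after scaling by total counts, was 2.42, with a 95% Clopper-Pearson interval of 2.39 to 2.44 that covers counting error only. Apoe has the highest GC content of the members at 60.0%. The replicates differed with GC content over the 13272 protein-coding genes with a mean of at least 1 TPM. Their median log2(TPM + 1) difference ran from -0.73 in the lowest of 20 GC bins to 1.10 in the highest. On the log2(TPM + 1) scale the Apoe difference was 1.44, and 0.49 once the median difference at its GC content was removed.

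Apoc1, the small protein that inhibits lipoprotein lipase and remnant uptake, was the second of this group. It stood at 35.2 and 53.3 TPM (343 and 365 fragments), a mean of 44.3 ± 12.8 TPM (SD, n = 2). Its count ratio of 1.41 (1.22 to 1.64) was not wholly beyond 2-fold. Apod, a lipocalin that binds arachidonic acid and progesterone and is not related to the helical apolipoproteins, stood at 33.7 and 21.5 TPM (1737 and 789 fragments), a mean of 27.6 ± 8.57 TPM (SD, n = 2). It was the 1 member of 10 that was higher in replicate 1, at a count ratio of 0.603 (0.554 to 0.657), also within 2-fold. Apoc1 was above Apod in TPM in both replicates, narrowly in replicate 1, and the gap between their means was smaller than the spread of Apoc1 plus that of Apod. Apoe exceeded Apoc1 by 42.0-fold and 75.2-fold in TPM, and Apod by 43.9-fold and 186-fold. The genes nearest to Apoe in level over the 2 libraries were the ribosomal protein genes Rpl36 (1318 and 3353 TPM), Rps21 (1751 and 3356 TPM) and Rpl13 (1133 and 4332 TPM), at Euclidean distances of 0.31 to 0.40 in log2(TPM + 1). Nearest to Apoc1 were Pam16, Krtcap3 and Mus81, and nearest to Apod were Mia2, Rnf185 and Ids, all within 0.034.

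Markers of the cell types that make these genes gave unlike pictures. Over all genes with a mean of at least 1 TPM, 8.73% lay wholly beyond 2-fold higher in replicate 2 and 9.43% lower. The number of macrophage markers called below is near the latter share, so nothing is read from it. The 10 macrophage markers summed to 1651 and 1675 TPM. Of them 1, Adgre1 (32.4 and 14.4 TPM), lay wholly beyond 2-fold, lower in replicate 2. It was joined by Mrc1 (10.7 and 5.19 TPM) with totals that left out mitochondrial genes and the 4 muscle markers. In TPM 6 of the 10 were higher in replicate 1, among them Lyz2 (749.8 and 496 TPM), and 4 in replicate 2, among them C1qc (259 and 423 TPM). Of the 6 white adipocyte markers, Cfd (13596 and 29051 TPM) and Plin1 (502 and 1290 TPM) lay beyond 2-fold higher in replicate 2. Cfd did not with totals that left out mitochondrial genes and the 4 muscle markers. Adipoq, at 1462 and 891 TPM, was within 2-fold and higher in replicate 1. All 3 brown adipocyte markers, led by Ucp1 (710 and 100 TPM) and Cidea (189 and 59.5 TPM), lay beyond 2-fold lower in replicate 2 under every scaling. The 5 fibroblast markers summed to 1789 and 1315 TPM, and Dcn and Lum lay beyond 2-fold lower in replicate 2, Dcn not so with TMM or DESeq2 scaling. Pdgfra, at 24.6 and 13.9 TPM, was within 2-fold, as were Col1a1 (242 and 341 TPM) and Col1a2 (357 and 383 TPM), which were higher in replicate 2. The GC trend between the replicates was not removed from these marker values. Cfd, Plin1, Col1a1 and C1qc, higher in replicate 2, have GC contents of 58.7%, 57.9%, 57.8% and 56.7%. Adipoq, Pdgfra, Lyz2, Adgre1, Ucp1, Lum, Mrc1 and Dcn, lower there, lie between 40.1% and 49.3%. Col1a2 (46.8%, higher) and Cidea (55.6%, lower) go against this order. The part of these cell types in the Apoe, Apoc1 and Apod values was not tested.

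**Figure D1:**
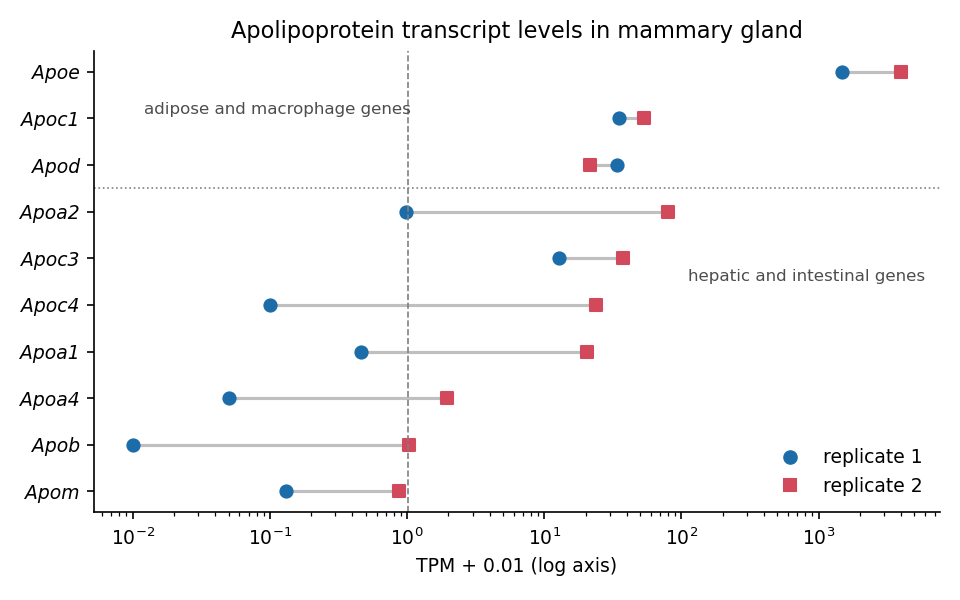
TPM of the 10 apolipoprotein genes in replicate 1 (circles) and replicate 2 (squares), on a log axis after adding 0.01, with the 3 adipose and macrophage genes above the dotted line and a dashed line at 1 TPM. Apoe lies at 1479 and 4008 TPM, and 6 of the 7 hepatic and intestinal genes lie under 1 TPM in replicate 1.

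The 7 hepatic and intestinal members were all higher in replicate 2, and most of their fragments lay there. They summed to 14.4 TPM in replicate 1 and 166 TPM in replicate 2, or 214 and 2056 fragments. Apoc3, which slows triglyceride hydrolysis, gave 88.3% of that sum in replicate 1 and 22.7% in replicate 2. Without it the other 6 summed to 1.68 and 128 TPM, and all 6 were under 1 TPM in replicate 1. The summed TPM of Apoe, Apoc1 and Apod was 107 times that of the hepatic and intestinal members in replicate 1 and 24.6 times in replicate 2, and 31.2 times from the means of both.

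Among the proteins of high density lipoproteins, Apoa2 stood at 0.98 and 80.3 TPM (13 and 718 fragments). It was thus below Apoc1 in replicate 1 and above it in replicate 2, at a count ratio of 73.4 (42.6 to 138). Apoa1, the activator of cholesterol esterification, stood at 0.45 and 20.6 TPM (16 and 515 fragments), a count ratio of 42.8 (26.1 to 75.4). Apoa4, an intestinal protein in the main, stood at 0.04 and 1.95 TPM (3 and 96 fragments), a count ratio of 42.5 (14.1 to 210). The intervals of these 3 ratios overlap, so their order is not set. Apom, the lipocalin that carries sphingosine 1-phosphate on high density lipoproteins, was low in both at 0.12 and 0.86 TPM (4 and 21 fragments), a count ratio of 6.97 (2.35 to 27.9).

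Apob had no fragment in replicate 1 and 160 in replicate 2, where it stood at 1.03 TPM. A count of 0 allows up to 3 fragments, and against that floor of 3 per library Apob was at least 70.8-fold higher in replicate 2 if its 160 fragments are taken as exact. The lower end of its 95% interval, which also carries their counting error, was 57.0-fold. Apoc4, a minor protein of very low density lipoproteins, stood at 0.09 and 23.7 TPM (1 and 182 fragments), a count ratio of 242 with a wide interval (42.9 to 9601). GENCODE M21 places a protein-coding gene, Gm44805, over Apoc4 on the same strand, and it has no entry of its own in the tables used here, so fragments of these genes cannot be told apart. Apoc3 stood at 12.7 and 37.6 TPM (177 and 364 fragments), a count ratio of 2.73 (2.28 to 3.29). It was the only hepatic and intestinal member above 1 TPM in both replicates, and its ratio lay below the intervals of Apoa1, Apoa2, Apoa4 and Apoc4.

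Of the 10 members, 4 were at or above 1 TPM in both replicates (Apoe, Apoc1, Apod and Apoc3), against 58.3% of protein-coding genes. With more than 3 fragments in both as the rule the number was 7, against 71.4%. In replicate 2 alone 9 members reached 1 TPM and in replicate 1 alone 4. A mean of at least 1 TPM was met by 7 members, and 5 of these had a count ratio wholly beyond 2-fold and higher in replicate 2 (Apoe, Apoa1, Apoa2, Apoc3, Apoc4), against 8.73% of 14510 genes. None was lower beyond 2-fold, against 9.43% of genes. Apoa1, Apoa2 and Apoc4 passed that filter only through replicate 2, and the members were chosen with these values known, so nothing is read from the count. Without the filter 8 of 10 were higher, against 6.73% of 22450 genes with any fragment, and 0 were lower, against 8.11%. The same 5 members, and the same 8 without the filter, were called with TMM and DESeq2 scaling. They were also called with totals that left out mitochondrial genes and the 4 muscle markers. Other muscle genes stayed in those totals, under which the lower ends of the Apoc3 and Apoe intervals were 1.03 and 1.10 in log2. A removal of all muscle genes was not tried. With the GC trend removed the difference of Apoe, 0.49 on the log2(TPM + 1) scale, was inside 2-fold. That of Apoc3, 1.09, lay just beyond 2-fold, and no interval was computed for it.

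Hepatocyte markers lay in the same direction. The 8 markers summed to 30.0 and 182 TPM. The transthyretin gene Ttr stood at 0.14 and 37.9 TPM, the fetuin gene Ahsg at 0.18 and 37.6 TPM, and the albumin gene Alb at 6.38 and 56.3 TPM. Of the 7 markers with a mean of at least 1 TPM, 5 lay wholly beyond 2-fold higher in replicate 2 (Alb, Serpina1a, Ttr, Ahsg, Ambp), against 8.73% of genes. Ttr, Ahsg and Ambp passed that filter only through replicate 2, so nothing is read from the count. Serpina1a, at 11.3 and 32.6 TPM, had a count ratio of 2.71, near that of Apoc3. It belongs to a family of near-identical copies, so its counts are uncertain. The fibrinogen chains were unlike one another: Fga had 0 and 80 fragments, while Fgb (1.57 and 2.21 TPM) and Fgg (10.4 and 9.81 TPM) lay within 2-fold. In replicate 2 Apoa2 stood above Alb in TPM. Of the 6 enterocyte markers, Fabp2 and Sis had no fragment in either replicate, Alpi had 0 and 1, Rbp2 3 and 0, and Vil1 17 and 14. Fabp1, also a hepatocyte gene, had 1 and 28. The intestinal list summed to 0.38 and 2.87 TPM. The part of liver RNA in the apolipoprotein values was not tested.

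**Figure D2:**
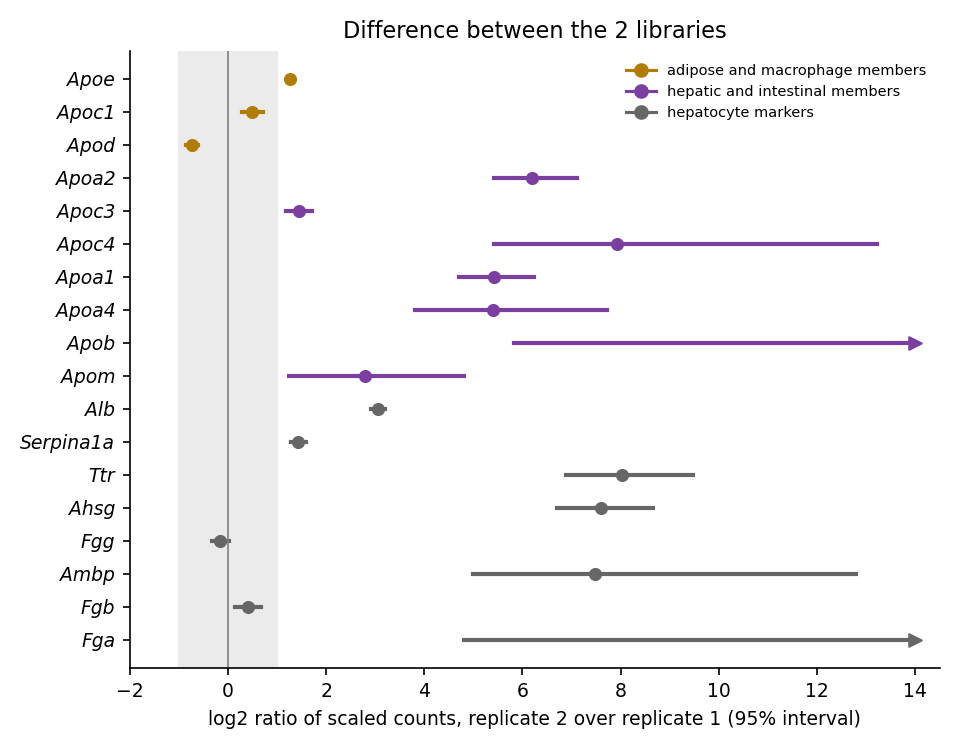
Log2 ratio of scaled counts, replicate 2 over replicate 1, for the 10 members and the 8 hepatocyte markers, with points at the ratio, lines for 95% Clopper-Pearson intervals, arrows for intervals with no upper end and grey for ratios within 2-fold. Apoc1 and Apod lie inside the grey band with Fgb and Fgg, and all 7 hepatic and intestinal members lie to its right.

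Of the 10 members, 6 sit in 2 gene clusters, and some neighbours within a cluster were at very different levels. On chromosome 7 the genes run in 1 direction from Apoe (19696109 to 19699188 on mm10) through Apoc1 (19689481 to 19692660) and Apoc4 (19678083 to 19681479) to Apoc2 (19671579 to 19677941). Along that order the levels in replicate 1 were 1479, 35.2, 0.09 and 1.43 TPM. In replicate 2 they were 4008, 53.3, 23.7 and 4.31 TPM. Starts of Apoe and Apoc4 lie 17.7 kb apart, and the count ratios of these neighbours were 2.42 and 242. On chromosome 9 the order is Apoa1 (46228580 to 46230466), Apoc3 (46232933 to 46235636, on the opposite strand), Apoa4 (46240696 to 46243459) and Apoa5 (46268633 to 46271919). Levels there were 0.45, 12.7, 0.04 and 0.03 TPM in replicate 1 and 20.6, 37.6, 1.95 and 6.31 TPM in replicate 2. Apoc3 was the highest gene of its cluster in both libraries, although its start lies 7.06 kb from that of Apoa1. The other members lie alone: Apoa2 on chromosome 1 (171225054 to 171226379), Apob on chromosome 12 (7977648 to 8016835), Apod on chromosome 16 (31296192 to 31314808) and Apom on chromosome 17 (35128997 to 35132050).

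**Figure D3:**
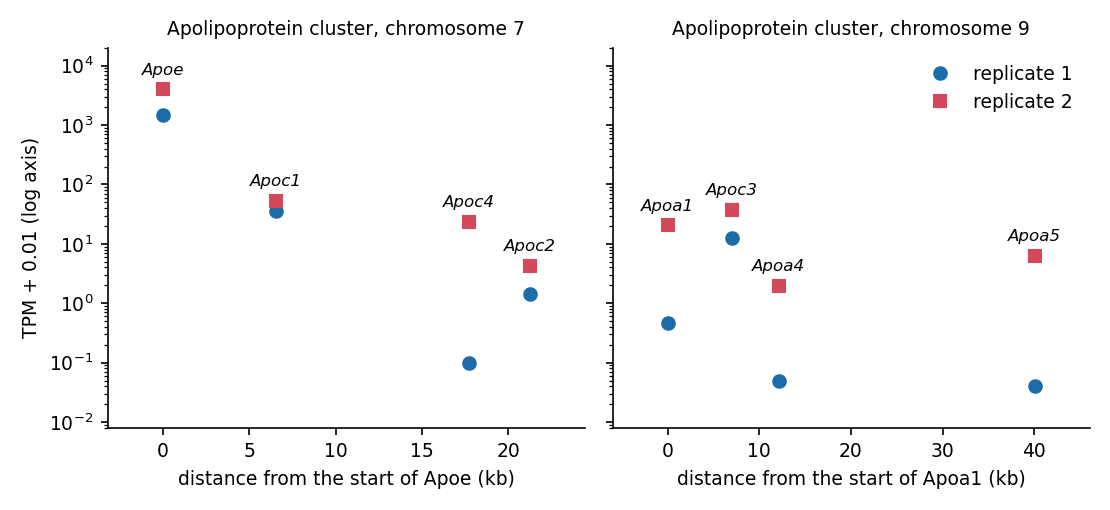
TPM after adding 0.01 (log axis) of the genes in the clusters on chromosomes 7 and 9 against the distance of each start from that of Apoe or Apoa1 in kb, with circles for replicate 1 and squares for replicate 2. Apoc4 lies at 0.09 and 23.7 TPM between Apoc1 and Apoc2, and Apoc3 lies above its neighbours in both replicates.

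The tables held 35 transcripts of the members, with 10 for Apoe and 1 each for Apoa4, Apoc4 and Apom. Shares below are the percent of the gene's TPM taken by a transcript. Apoe-209 was the leading Apoe transcript in both replicates, at 58.9% and 80.6%. Apoe-206, which begins and ends outside Apoe-209, took 26.6% and 6.5%. The share of Apoe-209 was thus higher by 21.8 percentage points in replicate 2, and that of Apoe-206 was lower by nearly as much. Both are annotated with the same coding sequence. They differ in the first exon, which spans 19698972 to 19699008 in Apoe-209 and 19699011 to 19699188 in Apoe-206, and in the 3′ end, which lies at 19696272 in Apoe-209 and 19696109 in Apoe-206. Apoe-202, annotated as a processed transcript without a coding sequence, took 11.6% and 11.1%. Summed over the 4 transcripts with the reference coding sequence, the share was 86.2% and 87.5%, nearly equal between the libraries.

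The transcript shares of Apoc1 and Apod differed less between the replicates than those of Apoe. Apoc1-201, with 4 exons, took 84.7% and 83.7%, and Apoc1-202, with 3 exons and the same coding sequence, 15.3% and 16.3%. Apod was split among Apod-203 at 38.8% and 38.4%, Apod-201, annotated as retaining an intron, at 37.7% and 32.4%, and Apod-202 at 20.97% and 26.1%. By fragments, without the division by length, Apod-203 took 60.4% and 59.9%. Apoc3-201 took 95.1% and 98.5% of Apoc3, so most fragments of the gene were assigned to 1 transcript in both replicates.

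The transcripts of Apoa2 and Apob rest on few fragments in replicate 1. In replicate 2 Apoa2 was divided between Apoa2-204 at 50.2% and Apoa2-201 at 49.1%, whose first exons begin at 171225054 and 171225082 and which share the coding sequence. In replicate 1 all 13 fragments were assigned to Apoa2-204, although the authors' posterior mean gave it 62.2% there. Of the Apob fragments in replicate 2, 72.5% were assigned to the full-length Apob-202 of 13934 nt and 26.8% to Apob-203, a transcript of 2174 nt at the 3′ end of the gene. On the TPM scale the order turned, with 26.7% for Apob-202 and 69.2% for Apob-203.

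**Figure D4:**
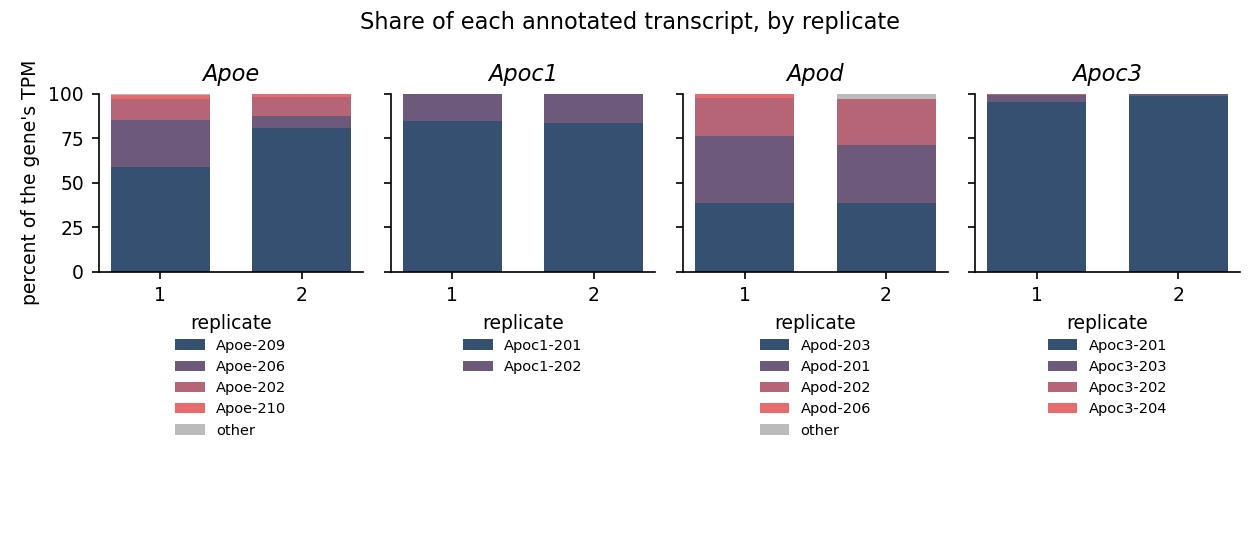
Percent of the gene's TPM taken by each annotated transcript of Apoe, Apoc1, Apod and Apoc3 in replicates 1 and 2, as stacked bars from 0 to 100 with the 4 leading transcripts coloured and any others in grey. Apoe-209 takes 58.9% and 80.6% of Apoe, while the Apoc1 bars are nearly alike.

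Genes that act with the apolipoproteins were read from 5 lists, and the median log2(TPM + 1) difference over all genes with a mean of at least 1 TPM was 0.05, replicate 2 minus replicate 1. Of 13 other lipoprotein proteins, 8 had a mean of at least 1 TPM. Of these, 3 (Apoa5, Apof and Apoh) lay beyond 2-fold higher in replicate 2 and 0 lower, with a median of 1.02. Over all genes with that mean, 8.73% lay higher and 9.43% lower. Apoa5, Apof and Apoh passed the filter only through replicate 2, so nothing is read from their count or from the median. Apoa5, the activator of triglyceride hydrolysis beside Apoa4, had 3 and 407 fragments, a count ratio of 180 with an interval on the log2 scale of 5.94 to 9.78. Apoh stood at 0.36 and 6.00 TPM and Apof at 0.90 and 3.87 TPM. The list was led by clusterin, Clu, at 574 and 1085 TPM and the phospholipid transfer protein gene Pltp at 243 and 389 TPM, both within 2-fold. The cofactor of lipoprotein lipase, Apoc2, stood at 1.43 and 4.31 TPM (26 and 50 fragments), and its interval crossed 2-fold. Saa1 and Saa2, the acute phase proteins of high density lipoproteins, had no fragment in either library.

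The genes that build Apob particles were partly at very low levels. Of 6 genes, 4 were above 1 TPM in both, with 0 higher and 1 lower beyond 2-fold and a median of -0.24. Mttp, which loads lipid onto Apob, stood at 0.83 and 0.37 TPM, and A1cf, the partner of the Apob mRNA editing enzyme, had 0 and 11 fragments. The editing enzyme gene Apobec1 itself stood at 42.3 and 38.4 TPM and P4hb, which also serves other proteins, at 164 and 129 TPM. Sar1b, a coat protein gene of vesicle export, lay beyond 2-fold lower in replicate 2 at 51.5 and 8.47 TPM.

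Genes of cholesterol efflux, lipolysis and uptake were measured in both replicates. Over all genes with a mean of at least 1 TPM, 8.73% lay beyond 2-fold higher in replicate 2 and 9.43% lower. All 5 efflux genes reached 1 TPM in each replicate, and their median difference was 0.51. The liver X receptor gene Nr1h2, whose protein is known to induce Apoe, stood at 106 and 245 TPM. It was the 1 gene beyond 2-fold, at a count ratio of 2.10, though not with totals that left out mitochondrial genes and the 4 muscle markers. A part of Nr1h2 in the Apoe level was not tested. Nr1h2 has a GC content of 60.9%, and its log2(TPM + 1) difference of 1.19 lay near the median of 1.10 in the highest GC bin. Its relative Nr1h3 stood at 103 and 124 TPM, and the lipid exporters Abcg1 at 23.4 and 44.8 TPM and Abca1 at 25.7 and 17.1 TPM. Of 8 lipolysis genes, 6 reached 1 TPM in each replicate and 0 lay beyond 2-fold, and their median difference was 0.15. The lipoprotein lipase gene Lpl stood at 842 and 716 TPM and its endothelial anchor Gpihbp1 at 236 and 196 TPM. The inhibitors Angptl8 and Angptl4 stood at 98.7 and 210 TPM and at 103 and 166 TPM, with Angptl8 beyond 2-fold under TMM and DESeq2 scaling, while the liver lipase gene Lipc was at 0.39 and 0.78 TPM.

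Among 13 receptor genes, 11 were above 1 TPM in both, with 0 higher and 2 lower beyond 2-fold and a median of 0.51. Lrp8, a receptor gene for Apoe at 2.11 and 6.45 TPM, was beyond 2-fold higher under TMM and DESeq2 scaling. The high density lipoprotein receptor gene Scarb1 stood at 185 and 274 TPM, and the Apoe receptor gene Lrp1 at 108 and 213 TPM. Bsg, whose protein binds Apod, stood at 381 and 449.6 TPM. The fatty acid receptor gene Cd36, at 182 and 68.9 TPM, was beyond 2-fold lower in replicate 2. Vldlr was lower by counts (a log2 ratio of -1.11, with an interval not wholly beyond 2-fold under TMM and DESeq2 scaling). It was higher in TPM, at 19.3 and 28.2, so its direction depends on the unit.

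**Figure D5:**
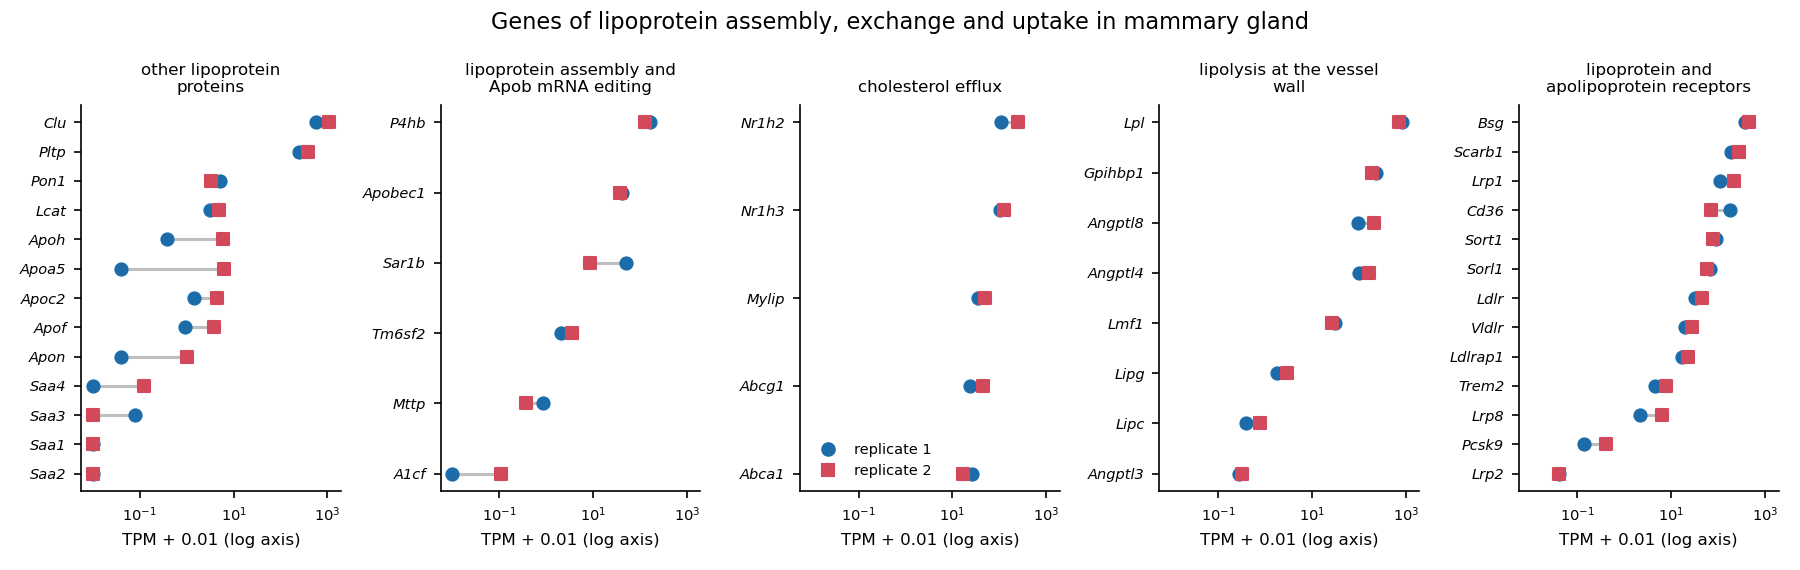
TPM after adding 0.01 (log axis) of the genes in the 5 lists of lipoprotein proteins, assembly, efflux, lipolysis and receptors, with circles for replicate 1 and squares for replicate 2. Apoa5 and Apoh show wide gaps between the replicates, whereas Lpl at 842 and 716 TPM and Bsg at 381 and 449.6 TPM do not.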

How the data were processed

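Gene and transcript tables of 2 mammary gland libraries were used as the authors deposited them, on mm10 with GENCODE M4 per the text notes beside the tables. The aligner and the quantifier: not given in the sources used here. Per the file headers the deposited values are expected counts (estimated fragments, not whole), TPM, FPKM, posterior mean TPM and, in the transcript tables, percent of a gene's TPM. The later release GENCODE M21, also on mm10, supplied names, positions and GC content and named 42462 of 43346 genes. A further 26345 entries without an Ensembl identifier were left out. Promoter sequences are from RefSeq on GRCm38.p6.

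For count ratios, expected counts were rounded, then divided by their sum over genes, with 95% Clopper-Pearson intervals, over all genes whose mean TPM was 1 or more. The floor was 3 counts per library. Intervals and floors cover counting error only. The test was tried on simulated data: of 14510 genes, 200 were changed 8-fold, and 98% of the changed and 0 of the unchanged genes were called beyond 2-fold. No spread between animals was simulated.

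The members, the marker and pathway lists and the motifs were chosen with earlier results of these data known. Named were all members, up to 4 genes of each pathway list with the highest mean TPM, cluster neighbours, the 2 highest markers and those at 0 of each cell type, and the 3 nearest genes to Apoe, Apoc1 and Apod. Abca1, Sar1b, Cd36, Vldlr, Mttp, A1cf, Apof, Apoh, Lipc, Saa1, Saa2, Adgre1, Plin1, Adipoq, Lrp8, Mrc1, Pdgfra, Dcn, Lum, Col1a1, Col1a2 and the other hepatocyte and enterocyte markers fall outside this rule or were picked after their values were seen. Some genes that met the rule were not described, among them Mylip and Pnpla2. Contigs and junctions, deposited on mm9, were not used here. Alternatives were other units, thresholds, pseudocounts, scalings (TMM from edgeR, factors 1.03 and 0.975, and DESeq2 size factors 1.21 and 0.829), removal of the GC trend in 20 bins, and each replicate left out. The scalings of pathway and marker genes were chosen after seeing the data. Tools were scipy 1.17.1, pandas 2.3.3 and numpy 2.4.6 in Python 3.11.15, matplotlib 3.10.9 for plots, and edgeR 4.0.16 and DESeq2 1.42.0 in R 4.3.3.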

Additional observations from a re-analysis of the deposited data

How the results depend on the processing

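No paired analysis was possible because the labels give 1 group of 2 libraries. The number of members at or above 1 TPM in both replicates, 4, was 7 with more than 3 expected counts as the rule, and between 4 and 9 with 1 replicate left out. The number beyond 2-fold, 5, was 8 without a filter on low values, by construction of the filter, 5 under the other scalings and 6 with a fold of 1.5. The member added at 1.5-fold was Apod, which was lower in replicate 2, unlike the others. It needs both libraries, so none was left out, and it was not recomputed with the GC trend removed. The ratio of the adipose and macrophage sum to the hepatic and intestinal sum, 31.2, lay between 24.6 and 107 with 1 replicate left out, and was 73.7 on expected counts, which are not divided by length. The Apoe share of 94.4% was 96.8% on expected counts and lay between 94.3% and 94.7% with 1 replicate left out. Leading transcripts were the same in all 7 genes with more than 1 transcript under posterior means or without replicate 1, and in 6 without replicate 2, where Apob had no fragment. None of 60 alternative values of the members' log2 differences changed sign. Of these, 12 lay outside the width of the count interval when centred on the main difference. With the GC trend removed the difference went from 0.58 to 0.25 for Apoc1, from 1.49 to 1.09 for Apoc3 and from 1.44 to 0.49 for Apoe. It went from 1.504 to 0.89 for Apoa4 and from 0.73 to 0.46 for Apom, but rose from 1.02 to 1.51 for Apob. With a pseudocount of 0.1 it was 3.87 for Apoa4, went from 1.02 to 3.50 for Apob and from 4.50 to 6.97 for Apoc4, and was 2.13 for Apom. On expected counts scaled by totals it was 2.26 for Apob, 2.38 for Apoc4 and 0.48 for Apom. The shift of all count ratios was 0.07 under TMM and 0.13 under DESeq2 size factors, in log2. Apoa4, Apob, Apoc4 and Apom rest on 0 to 4 fragments in replicate 1.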
